A study of Mus musculus with 12 samples.

Results

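The comparison described here was that of PPARγ/+_5d with PPARγ/+_0d, which is the course of myogenic differentiation in mouse C2C12 cells that carried extra PPARγ. C2C12 is an established mouse skeletal myoblast line. The PPARγ/+ cells had received a PiggyBac vector (PB-IP) with the coding sequence of PPARγ and were selected with puromycin, and RNA was taken on day 0 (0d) and on day 5 (5d), with 3 libraries per group. These 6 libraries of the 12 in the series were picked by the names of their columns, and all genes were described. The other 6 libraries, WT_0d and WT_5d, came from C2C12 cells named as wild type and collected on the same days. Their titles also carry the name PbIP, and the study names its control for the PPARγ level the WT PB-IP group, after the vector. It does not state outright whether these cells held the vector without PPARγ. The study calls the 3 libraries of a group biological replicates without saying whether they were separate cultures or how many clones made up the PPARγ/+ line, so p-values measure the spread between these libraries. The vector holds the coding sequence of the same gene, so fragments from the endogenous *Pparg* gene and from the vector cannot be told apart.

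Of 46983 genes listed by Ensembl identifier, 25171 had a value above 0 in at least 1 of the 6 libraries. Levels were given as FPKM, a fragment number divided by transcript length and by library depth. A gene was tested when it reached 0.1 FPKM in at least 3 of the 12 libraries, which left 18023 genes. A gene was said to have risen or fallen when limma gave a Benjamini-Hochberg adjusted p of at most 0.05 over all genes tested and the fold change was at least 2. All log2 changes are 5d over 0d on the log2(FPKM + 0.1) scale, which understates the change of genes with low levels, and the number after ± is the standard error.

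Myoblasts divide, and when growth signals are withdrawn they leave the cell cycle, align and fuse into myotubes. The basic helix-loop-helix factors MyoD and Myf5 commit the cells, and myogenin (MyoG) and the MEF2 factors turn on the genes of the contractile apparatus. PPARγ is a nuclear receptor that pairs with RXR and is known as the master regulator of fat cell differentiation, with targets in fatty acid uptake and lipid storage.

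From 0d to 5d, 1572 genes rose, which was 8.72% of the genes tested, and 1009 fell, which was 5.60%. Both directions together made up 14.3%. The change exceeded 4-fold in 508 of the genes that rose and in 291 of those that fell. Genes of the muscle apparatus, of the extracellular matrix and of chemokine signalling rose, and genes of DNA replication and mitosis fell. The groups of 3 libraries did not overlap for 10479 genes, or 58.1%, so a lack of overlap is common among all genes. The median log2 change over all genes tested was -0.10.

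The promoters of 6 of these genes are shown because they hold, in the letters themselves, the motifs that were more frequent among the genes that rose or fell. Each runs 5′ to 3′ on the strand of the gene, from 250 bases before the start site to 50 bases after it, as RefSeq gives it on GRCm38.p6. Capitals mark the matches named with each gene.

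In *Chrng*, the acetylcholine receptor subunit of fetal muscle (chr1:87205561-87205860, plus strand), capitals mark MyoD E-boxes. In *Acta1*, skeletal muscle actin (chr8:123894726-123895025, minus strand), they mark a MyoD E-box and the CArG box of serum response factor. In *Klhl41*, a sarcomere-associated kelch protein (chr2:69669870-69670169, plus strand), they mark a MyoD E-box and a MEF2 site.
Chrng: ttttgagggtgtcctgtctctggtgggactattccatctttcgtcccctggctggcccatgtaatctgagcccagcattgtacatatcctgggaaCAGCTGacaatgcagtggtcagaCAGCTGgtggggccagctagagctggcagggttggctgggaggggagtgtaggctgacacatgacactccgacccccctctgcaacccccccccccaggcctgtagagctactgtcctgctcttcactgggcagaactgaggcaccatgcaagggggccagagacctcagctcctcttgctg
Acta1: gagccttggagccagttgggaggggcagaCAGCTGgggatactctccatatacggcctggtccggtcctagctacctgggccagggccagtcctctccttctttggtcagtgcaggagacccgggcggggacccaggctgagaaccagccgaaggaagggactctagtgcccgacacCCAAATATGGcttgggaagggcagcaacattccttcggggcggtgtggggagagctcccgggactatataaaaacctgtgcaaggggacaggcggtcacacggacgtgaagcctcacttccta
Klhl41: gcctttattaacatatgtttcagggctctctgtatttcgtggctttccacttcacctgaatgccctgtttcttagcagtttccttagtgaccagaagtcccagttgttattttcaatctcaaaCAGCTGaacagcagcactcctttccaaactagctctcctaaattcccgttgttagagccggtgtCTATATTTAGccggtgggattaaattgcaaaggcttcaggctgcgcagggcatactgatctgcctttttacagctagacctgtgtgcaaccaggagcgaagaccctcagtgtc

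The other 3 belong to genes that fell. In *Cdc20*, an activator of the anaphase-promoting complex (chr4:118437294-118437593, minus strand), capitals mark the CHR element and CCAAT boxes. In *Mki67*, the proliferation marker Ki-67 (chr7:135716330-135716629, minus strand), they mark CHR elements, CCAAT boxes and an E2F core. In *Mcm5*, a subunit of the replicative helicase (chr8:75109259-75109558, plus strand), they mark E2F cores and CCAAT boxes.
Cdc20: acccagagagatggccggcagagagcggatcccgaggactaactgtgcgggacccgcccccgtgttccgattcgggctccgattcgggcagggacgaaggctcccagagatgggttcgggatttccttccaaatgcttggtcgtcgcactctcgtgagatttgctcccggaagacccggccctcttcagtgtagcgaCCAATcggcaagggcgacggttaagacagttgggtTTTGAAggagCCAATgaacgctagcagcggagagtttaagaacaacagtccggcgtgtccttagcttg
Mki67: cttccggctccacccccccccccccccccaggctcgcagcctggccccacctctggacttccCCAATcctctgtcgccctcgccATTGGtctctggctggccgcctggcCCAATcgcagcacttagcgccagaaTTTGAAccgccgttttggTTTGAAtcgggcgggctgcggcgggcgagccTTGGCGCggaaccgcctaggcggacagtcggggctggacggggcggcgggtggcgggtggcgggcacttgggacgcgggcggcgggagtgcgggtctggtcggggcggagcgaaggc
Mcm5: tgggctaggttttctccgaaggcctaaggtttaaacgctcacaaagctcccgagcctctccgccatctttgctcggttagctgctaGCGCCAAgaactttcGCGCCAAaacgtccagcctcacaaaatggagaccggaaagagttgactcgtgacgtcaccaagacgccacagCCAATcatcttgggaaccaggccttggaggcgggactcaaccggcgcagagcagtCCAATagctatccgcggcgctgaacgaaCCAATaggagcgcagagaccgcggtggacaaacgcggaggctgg

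A promoter was listed for 11179 of the 18023 genes tested, and each motif was searched on both strands. The MyoD E-box, CAGCTG, was present in 15.6% of the promoters of all genes tested, in 27.3% of those of the genes that rose and in 13.4% of those of the genes that fell. Among the 61 promoters of muscle apparatus genes that rose, 42.6% held it. The MEF2 consensus was found in 1.89% of all tested, 4.96% of the genes that rose and 18% of that muscle set, and the CArG box in 1.36%, 2.23% and 9.84%. MCAT, CATTCC, which TEAD factors bind, was found in 12.5% of all tested, 16.9% of the genes that rose and 31.1% of the muscle set. The CHR element, TTTGAA, which the DREAM complex reads at mitotic genes, was found in 12% of all tested and 26.7% of the genes that fell. In the 54 promoters of the mitosis list its share was 66.7%. The CCAAT box of NF-Y was found in 38.6% of all tested, 52.6% of the genes that fell and 72.2% of the mitosis list. The E2F core TTGGCGC was found in 4.25% of all tested, 9.29% of the genes that fell and 20.9% of 43 promoters of DNA replication genes, and the core TTCCCGC in 8.03%, 17.4% and 32.6%. On the opposite strand the first E2F core ends in the letters CCAA, so it can overlap a CCAAT box, and the MEF2 consensus can overlap a TATA box. AGGTCA, the single repeat that nuclear receptors such as PPAR and RXR read, was found in 12.5% of all tested, 14.0% of the genes that rose, 25.9% of 27 promoters of listed PPAR targets and 0 of 5 promoters of adipocyte markers. The MyoD E-box was in 37.0% of the same 27 promoters. These shares describe letters in a window of 300 bases and not the binding of a factor.

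**Figure D1:**
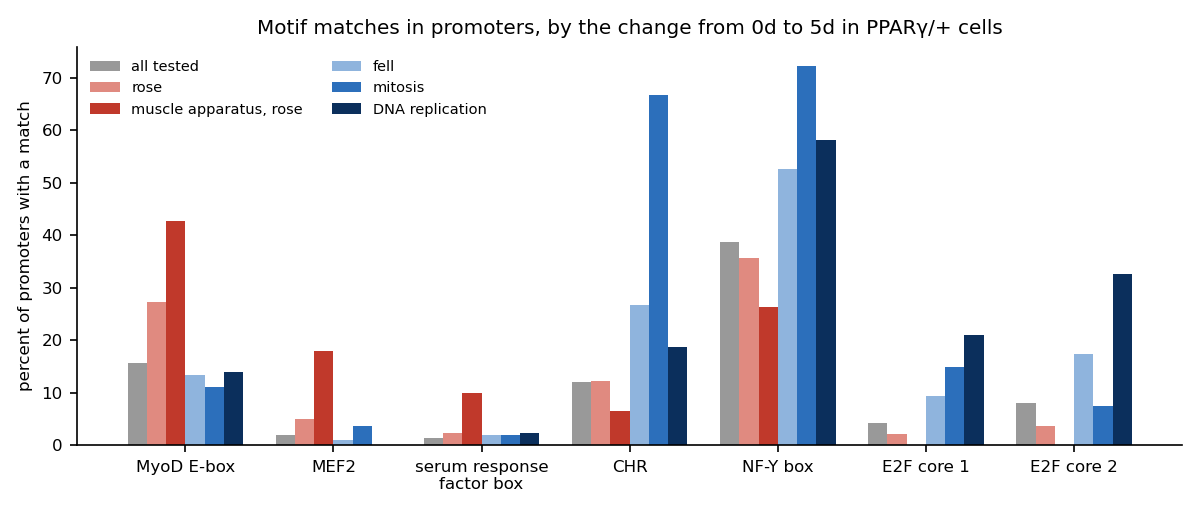
Percent of promoters (vertical axis) that held a match to each of 7 motifs (horizontal axis), in the promoters of all genes tested, of genes that rose or fell from 0d to 5d in PPARγ/+ cells, and of 3 gene lists. The MyoD E-box stood at 42.6% in the muscle apparatus genes that rose against 15.6% in all genes tested, and the CHR element at 66.7% in the mitosis list against 12%.

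The libraries held between 15557950 and 22013357 fragments on genes, recovered from the steps of the FPKM values. All pairs of libraries of the same day had correlations of log2 values between 0.9775 and 0.9821, and pairs of different days between 0.9206 and 0.9371. The first principal component, with 67.5% of the variance, separated the days. The second, with 8.82%, set apart replicate 3 of PPARγ/+_5d, which lay at 42.98 against -18.60 and -26.44 for the other two 5d libraries. That library had the highest value of the 3 at 5d in 36.1% of all genes tested but in all 7 adipocyte markers that could be tested, so the results on fat cell genes are given with and without it.

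*Pparg* itself stood at 44.4, 28.0 and 46.4 FPKM in the 3 libraries of 0d and at 40.1, 44.1 and 92.7 in those of 5d. The highest value was that of replicate 3 at 5d, and the days overlapped. The log2 change of 0.50 ± 0.35 did not pass (limma adjusted p = 0.284), and it was 0.12 without that library (adjusted p = 0.718), with adjusted p from 0.136 to 0.718 over all settings tried. In WT cells the mean was 6.53 at 0d and 3.75 at 5d, so the ratio of PPARγ/+ to WT was 6.07 at 0d and 15.7 at 5d. All 3 PPARγ/+ libraries lay above all 3 WT libraries on either day (two-sided exact permutation test, p = 0.1, the smallest that 3 against 3 allows).

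Marker lists were read as a check of the label, and no cell type is named from them. Markers of fibroblasts and adipocytes rose as well and are given below. Among 8 myoblast markers, 5 rose and 0 fell, among them *Des*, the muscle intermediate filament desmin, and *Cdh15*, M-cadherin. *Des* stood at 45.5, 49.2 and 62.9 FPKM at 0d and at 199, 224 and 238 at 5d. All 10 myotube markers rose, with a median log2 change of 5.73 against -0.10 for all genes, and their summed level went from between 7.38 and 24 FPKM to between 942 and 1110. Markers of endothelium, with 1 of 7 tested and summed levels of at most 0.257 FPKM in every library, and of the heart, with 0 of 4 tested rising or falling, stayed low or did not pass. Of 3 leukocyte markers tested 1 rose, and their sum was between 13.4 and 14.4 FPKM at 0d and between 14.5 and 16.5 at 5d. In bulk RNA, a larger share of cells of a type and more RNA per cell cannot be told apart, and this holds for every level given here.

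Of 17 myogenic factors tested, 5 rose, 0 fell and 12 did not pass. *Myog*, which starts terminal differentiation, stood at 0.603, 1.13 and 3.22 FPKM at 0d and at 78.8, 85.9 and 90.3 at 5d. The groups lay far apart, and at 0d replicate 3 was the highest. Its log2 change was 5.90 ± 0.51 (adjusted p = 0.0002). *Myod1* went from 6.30, 5.03 and 9.68 to 19.6, 22.1 and 20.4 FPKM, a log2 change of 1.60 ± 0.22 (adjusted p = 0.00127). *Rbm24*, an RNA-binding protein of muscle splicing, and *Smyd1*, a methyltransferase of sarcomere assembly, rose with log2 changes of 3.73 ± 0.23 and 4.01 ± 0.23. *Mef2c* rose from at most 0.0522 FPKM to between 0.178 and 0.246, so it remained scarce.

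*Myf5*, the early myogenic factor, stood at 3.66, 4.25 and 3.96 FPKM at 0d and at 5.58, 6.27 and 8.47 at 5d in PPARγ/+ cells. The values at 5d were all above those at 0d, but the log2 change of 0.74 ± 0.16 was under 2-fold (adjusted p = 0.00791). In WT cells the mean was 12 FPKM at 0d and 4.43 FPKM at 5d, and the gene fell there. The day effect differed between the cell types by 2.20 ± 0.27 on the log2 scale (limma interaction, adjusted p = 0.00844).

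Of 18 genes of cell fusion tested, 8 rose, 0 fell and 10 did not pass. *Mymk*, which encodes myomaker, went from 0.705, 1.45 and 2.36 FPKM to 110, 119 and 130, with a log2 change of 6.36 ± 0.37 (adjusted p = 4.99e-05). *Mymx*, which encodes its partner myomixer, went from 0.0420, 0.314 and 0.0939 to 18.4, 17.8 and 23.6 FPKM, with a log2 change of 6.46 ± 0.38. Both proteins act in the plasma membrane. Both genes were low at 0d, and *Mymx* was almost silent there and rested on 1 to 8 fragments per library. *Tmem182*, another membrane protein of myotubes, rose by 5.76 ± 0.31. Integrin β1, *Itgb1*, was among the most abundant members of this list and did not pass.

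The lists from myosin heavy chains to the acetylcholine receptor and synapse held 125 names in all and covered the muscle apparatus. The dystrophin complex was not among them. Of the 125 names, 115 were tested, and 82 rose and 2 fell, with a median log2 change of 2.27. The share that rose was 71.3%, beside 8.72% of all genes. The summed FPKM of the lists went from between 4520 and 4650 to between 6260 and 6860, and abundant non-muscle members such as *Myh9* and *Myl6* did not pass. In the plot of gene lists these sets lie to the right and those of the cell cycle to the left.

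**Figure D2:**
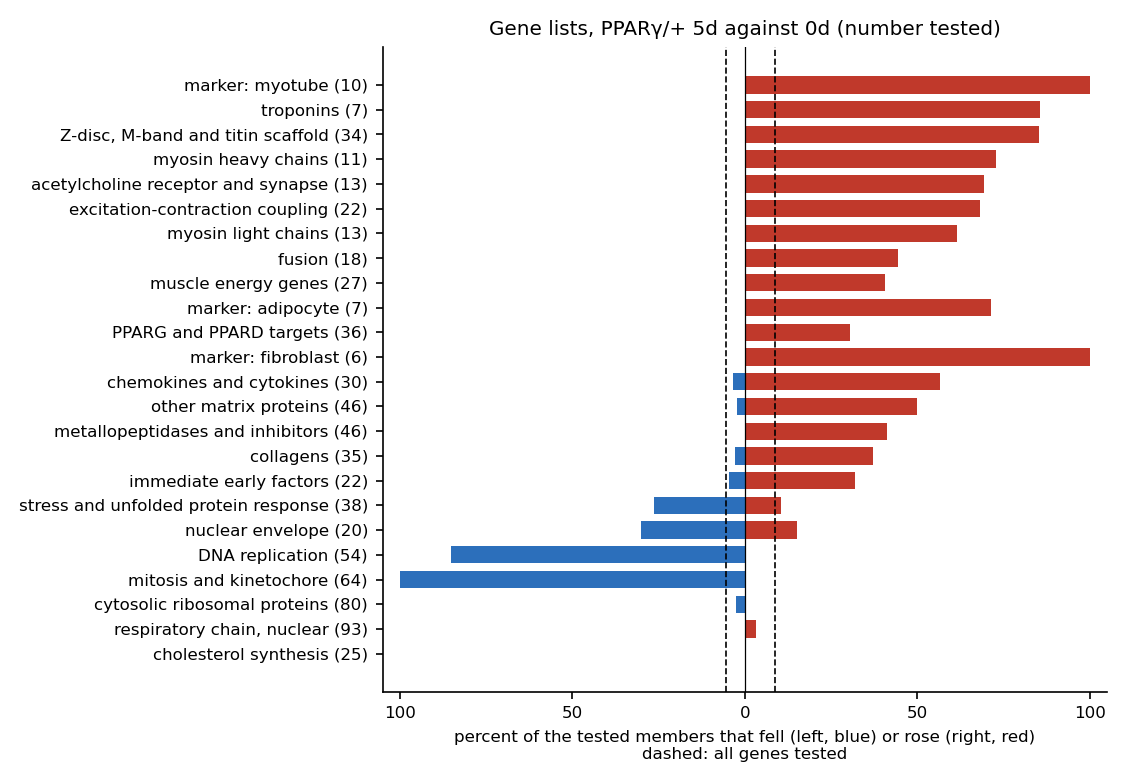
Percent of the tested members of 24 gene lists that rose (right, red) or fell (left, blue) from 0d to 5d in PPARγ/+ cells, with the number tested in brackets. The dashed lines give the shares among all genes tested, 8.72% and 5.60%. All 10 myotube markers rose and all 64 genes of mitosis fell, while 0 of 25 genes of cholesterol synthesis passed.

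Among 11 myosin heavy chains, the motors of the thick filament, 8 rose and 0 fell, and 3 rose with a pseudocount of 1. The adult fast chain *Myh1* went from 0.0516, 0.0725 and 0.159 FPKM to 11.9, 11.4 and 8.26, a log2 change of 5.79 ± 0.24. *Myh4*, another fast chain, had 0, 0 and 1 fragments at 0d and reached 1.31, 2.36 and 0.948 FPKM at 5d, a ratio of 682 with a 95% counting interval of 122 to 27000. Non-muscle *Myh9* was the most abundant chain, at 178 to 195 FPKM at 0d and 138 to 157 at 5d, and its log2 change of -0.34 ± 0.07 was under 2-fold.

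Of 13 myosin light chains, 8 rose and 0 fell, and 5 rose with a pseudocount of 1. *Mylpf*, the fast regulatory chain, went from 2.28, 4.44 and 7.89 FPKM to 350.9, 390 and 420, a log2 change of 6.45 ± 0.40 (adjusted p = 6.14e-05). *Myl1* and *Myl4*, the chains of fast and of embryonic muscle, rose by 6.09 ± 0.30 and 4.72 ± 0.20. *Myl6*, the abundant non-muscle chain, did not pass.

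The troponins, which make the thin filament respond to calcium, had the highest median log2 change of the apparatus lists, 5.56, and 6 of 7 rose. *Tnnc1*, the slow and cardiac troponin C, was already present at 0d at 11.3, 14.6 and 13.4 FPKM and reached 251, 280 and 331 at 5d, a log2 change of 4.44 ± 0.13 (adjusted p = 1.46e-05). The slow forms *Tnni1* and *Tnnt1* rose by 6.44 ± 0.47 and 6.11 ± 0.15, and the fast form *Tnnt3* by 5.56 ± 0.21.

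Of 15 actins and tropomyosins 7 rose and 2 fell. *Acta1*, whose promoter is shown above, stood at 4.58, 9.50 and 15.3 FPKM at 0d and at 622, 714 and 715 at 5d. Its groups did not overlap, and its log2 change was 6.27 ± 0.39 (adjusted p = 6.35e-05). Cardiac actin *Actc1* rose by 5.51 ± 0.39 and leiomodin 2, *Lmod2*, a nucleator of thin filaments, by 5.42 ± 0.47. The 2 that fell were *Actg2*, enteric smooth muscle actin, with 9.0, 11.6 and 13.8 FPKM at 0d and 1.39, 1.55 and 1.59 at 5d, and *Tpm3*, a tropomyosin of slow muscle and of non-muscle cells, which fell by 1.01 on the log2 scale. Without replicate 1 of 0d *Tpm3* had a change of -0.93, under the fold limit, and 1 of the 15 fell, as it did under median-ratio scaling and quantile normalization.

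The scaffold of the Z-disc and the M-band was the list with the most genes that rose, 29 of 34, and 0 fell. *Klhl41* went from 0.130, 0.258 and 0.308 FPKM to 22.2, 22.9 and 28.8, a log2 change of 6.25 ± 0.23. *Mybph*, a myosin-binding protein, and *Myom2*, an M-band protein, rose by 6.28 ± 0.49 and 5.45 ± 0.17, and the giant spring titin, *Ttn*, by 4.43 ± 0.24. *Ankrd1*, a titin-binding stress sensor, was abundant on both days, at 95.1 to 144 and 253 to 293 FPKM, and rose by 1.18 ± 0.16. *Cryab*, the chaperone αB-crystallin, did not pass by fold, at 210, 321 and 240 FPKM on 0d and 162, 180 and 177 on 5d.

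Excitation-contraction coupling, which turns a membrane signal into calcium release, had 15 of 22 genes up and 0 down. *Casq2*, a calcium store protein, went from 0.285, 0.420 and 0.368 FPKM to 26.5, 28.4 and 28.8, a log2 change of 5.94 ± 0.12 (adjusted p = 6.46e-06). The calcium pump *Atp2a1* and its luminal partner *Hrc* rose by 5.98 ± 0.28 and 5.84 ± 0.22, and the ryanodine receptor *Ryr1* by 4.53 ± 0.36. *Scn4a*, the muscle sodium channel, was at 0 in all 3 libraries of 0d and at 0.123, 0.145 and 0.229 FPKM at 5d, at least 9.34-fold higher when the floor is set at 3 fragments per library. Its mean in WT cells at 5d was 4.31 FPKM, and its day effect differed between the cell types by -3.62 ± 0.57 (interaction adjusted p = 0.018).

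Genes of the acetylcholine receptor and the synapse rose in 9 of 13 cases and fell in 0. *Chrng* had the smallest adjusted p of the list, with 0.0788, 0.0921 and 0.132 FPKM at 0d, 20.7, 23.1 and 25.0 at 5d and a log2 change of 6.84 ± 0.14 (adjusted p = 6.46e-06). *Chrnd* and *Chrna1*, further subunits of the receptor, rose by 4.64 ± 0.31 and 2.36 ± 0.15, and *Colq*, the collagen tail of acetylcholinesterase, by 3.28 ± 0.24. *Chrne*, the subunit that replaces *Chrng* in the adult receptor, stayed at or under 0.108 FPKM in all 6 libraries and did not pass.

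Of 18 genes of the dystrophin complex, which links the cytoskeleton to the matrix, 6 rose and 0 fell. The sarcoglycan *Sgca* rose by 3.17 ± 0.20. *Sgcb* had a log2 change of only 0.23 ± 0.05, from between 22.0 and 23.1 FPKM to between 26.0 and 27.4. Dystrophin itself, *Dmd*, was listed at 0.0195 FPKM or less in all 6 libraries and was not tested.

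Among 27 genes of muscle energy use, 11 rose and 0 fell, but their summed level was lower at 5d, at 1400 to 1560 FPKM, than at 0d, at 1910 to 2150. Those that rose and are named here were muscle forms. *Mb*, myoglobin, went from 0.327, 0.460 and 1.02 FPKM to 36.5, 43.3 and 61.2, a log2 change of 6.16 ± 0.37. *Ckm*, muscle creatine kinase, rose by 5.09 ± 0.28 from at most 2 fragments per library, and *Cox8b*, a muscle form of a cytochrome oxidase subunit, was at 0 in every 0d library and reached 2.83 to 4.24 FPKM, at least 10-fold higher against the same floor. The most abundant members were enzymes of glycolysis that did not pass by fold. *Pkm*, pyruvate kinase, stood at 954, 925 and 859 FPKM and then at 456.4, 501 and 522, with a log2 change of -0.89 ± 0.09. *Gapdh* had a log2 change of -0.52 ± 0.09 and enolase 3, *Eno3*, of -0.64 ± 0.08.

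Genes of cell division fell. All 64 tested genes of mitosis and the kinetochore fell, with a median log2 change of -3.46, and 46 of 54 genes of DNA replication fell, with a median of -1.52, while 5.60% of all genes did. *Cdc20* stood at 136, 96.3 and 108 FPKM at 0d and at 5.58, 6.70 and 7.61 at 5d, a log2 change of -4.08 ± 0.16 (adjusted p = 1.61e-05). *Ccnb1*, cyclin B1, went from 35, 25.6 and 30.2 to 1.92, 1.94 and 1.65 FPKM, a log2 change of -3.96 ± 0.13. The spindle proteins *Troap* and *Dlgap5* had log2 changes of -3.98 and -3.95 and fell. *Mki67* went from 59.4, 35.1 and 51.5 to 4.23, 3.97 and 3.85 FPKM, a log2 change of -3.53 ± 0.18. At 0d replicate 1 had the highest value of *Cdc20*, *Ccnb1* and *Mki67*, and its values of *Myog*, *Mylpf* and *Acta1* were the lowest of the 3. The summed mitosis list lay between 1450 and 2030 FPKM at 0d and between 179 and 196 at 5d.

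In the DNA replication list, *Mcm5* went from 33.3, 20 and 22.7 FPKM to 3.17, 3.27 and 3.6, a log2 change of -2.85 ± 0.18. *Uhrf1*, which guides maintenance methylation, and *Dbf4*, the activator of an origin-firing kinase, fell with log2 changes of -2.76 and -2.75. *Rrm2*, the regulated subunit of ribonucleotide reductase, fell less, with -1.70, and kept 34.6 to 39.7 FPKM at 5d. *Orc6*, a subunit of the origin recognition complex, went from 77.5, 64.4 and 62.4 to 48.8, 51.6 and 47.3 FPKM. It was one of 8 that did not pass by fold, and without the fold limit all 54 fell. Of 46 clustered histone genes, 8 fell and 1 rose, but 0 fell with a pseudocount of 1, 5 under median-ratio scaling and 13 under quantile normalization. Their mRNAs largely lack poly(A) tails, so a library made from poly(A) RNA counts few of them.

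Among 30 genes of cell cycle control, 3 rose and 8 fell. *Cdkn1a*, the inhibitor p21, stood at 68.0, 86.2 and 87.4 FPKM at 0d and at 164, 174 and 162 at 5d, just past the fold limit with a log2 change of 1.06 ± 0.10 (adjusted p = 0.000323). The other two were *Btg2* and *Gadd45a*, growth arrest genes, which rose by 1.74 ± 0.11 and 1.37 ± 0.31. Without replicate 1 of 0d *Cdkn1a* and *Gadd45a* had changes of 0.94 and 0.99, under the fold limit, so that 1 of the 30 rose. *Ccnd1*, cyclin D1, went from 74.6, 39.9 and 56.4 to 23.8, 23.9 and 21.1 FPKM, a log2 change of -1.26 ± 0.21. *E2f7*, a repressor of the E2F family, fell by 3.02. In contrast to p21, the inhibitor *Cdkn2d* fell, from 22.9, 18.9 and 21 to 5.42, 6.07 and 5.08 FPKM. Of 30 p53 target genes 5 (16.7%) rose and 4 (13.3%) fell, to be read beside the same shares of all genes. Among those that fell was the death effector *Bax*, with a log2 change of -1.08.

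ID proteins hold back MyoD by binding its partners. *Id2* stood at 72.5, 47.4 and 50.6 FPKM at 0d and at 16.7, 17.7 and 18.7 at 5d, and fell by 1.65 on the log2 scale. *Id3* went from 131, 143 and 128 to 57.0, 60.2 and 75.6 FPKM and fell by 1.07. *Id1* missed the fold limit with a log2 change of -0.95 ± 0.22 (adjusted p = 0.0108). In the Notch pathway the ligand *Dll1* rose by 2.38 ± 0.15, and the targets went both ways, *Heyl* up by 2.27 ± 0.31 and *Hey1* down with -1.68.

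**Figure D3:**
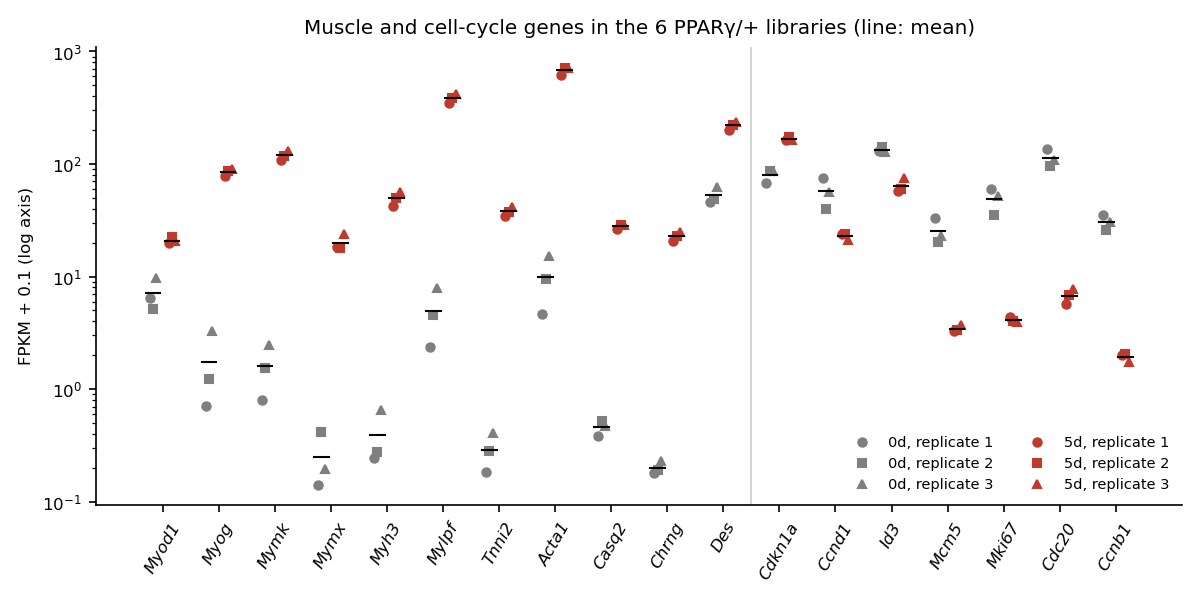
FPKM + 0.1 on a log axis (vertical) of 18 genes (horizontal) in the 3 libraries of 0d (grey) and the 3 of 5d (red) of PPARγ/+ cells, with marker shapes for replicates and a line at each mean. The 11 muscle genes on the left and *Cdkn1a* lie higher at 5d without overlap, and the 6 genes at the right end lie lower. Of all genes tested, 58.1% had no overlap between the days.

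Besides the muscle programme, a set of fat cell genes rose, most in 1 library. Of 10 adipocyte markers 7 could be tested, 5 rose and 0 fell, with a median log2 change of 1.85. In WT cells, where 8.07% of all genes rose and 6.90% fell, 0 of the same 7 rose or fell and their median change was 0.00. *Adipoq*, the fat cell hormone adiponectin, stood at 2.46, 1.05 and 1.96 FPKM at 0d and at 8.03, 12.7 and 40.5 at 5d. Its log2 change was 3.15 ± 0.60 (adjusted p = 0.00514), and 2.48 without replicate 3 of 5d (adjusted p = 0.00662), with adjusted p from 0.000387 to 0.0306 over all settings tried. *Lpl*, lipoprotein lipase, went from 11.5, 7.51 and 11.8 to 26.1, 28.9 and 65.2 FPKM, a log2 change of 1.85 ± 0.36, and of 1.44 without that library. *Plin1*, which coats the lipid droplet, went from 0.185, 0.0660 and 0.0788 to 0.612, 1.02 and 2.73 FPKM, a log2 change of 2.69 ± 0.52, and of 2.13 without it. In all 3 genes each 5d library lay above every 0d library, while the days did not overlap in 58.1% of all genes tested.

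*Fabp4*, a fatty acid carrier, went from 1.99, 1.59 and 2.0 to 4.12, 4.86 and 10.3 FPKM, a log2 change of 1.63 ± 0.33, and of 1.23 without replicate 3. *Cfd*, the secreted protease adipsin, had the widest spread, at 0.314, 1.11 and 12.3 FPKM on 5d after 0.0888, 0.0831 and 0.0496 on 0d. Its adjusted p was 0.0453, and it passed in only 2 of the 6 fits that each left out 1 library. *Cebpa*, a partner factor of PPARγ in fat cells, went from 9.30, 10.1 and 10.2 to 17.2, 17.6 and 22.6 FPKM and missed the fold limit with 0.94 ± 0.11. *Cidec*, a protein of droplet fusion, did not pass, at 0.309, 0.103 and 0.0987 and then 0.182, 0.376 and 1.33 FPKM. Of the markers that could not be tested, *Retn* was at most 0.341 FPKM and *Adig* was at 0 in all 3 libraries of 5d.

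The 7 tested markers were all highest in replicate 3 of 5d, with a median excess of 1.66 on the log2 scale over the mean of the other two libraries, beside 0.00 for all genes. *Pparg* was highest in that library too. The summed FPKM of the adipocyte markers lay between 20.6 and 26.3 at 0d and between 56.6 and 155 at 5d in PPARγ/+ cells, and between 11.9 and 19 in all 6 WT libraries. With the library left out, 5 of 7 still rose. The part of that library's *Pparg* level, or of a different make-up of its cells, in these values was not tested. The difference of the day effect between PPARγ/+ and WT cells did not pass for *Adipoq* (3.28 ± 0.70, interaction adjusted p = 0.0654), *Lpl* (2.14 ± 0.48, 0.0788), *Plin1* (2.57 ± 0.61, 0.093) or *Fabp4* (1.74 ± 0.42, 0.106).

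**Figure D4:**
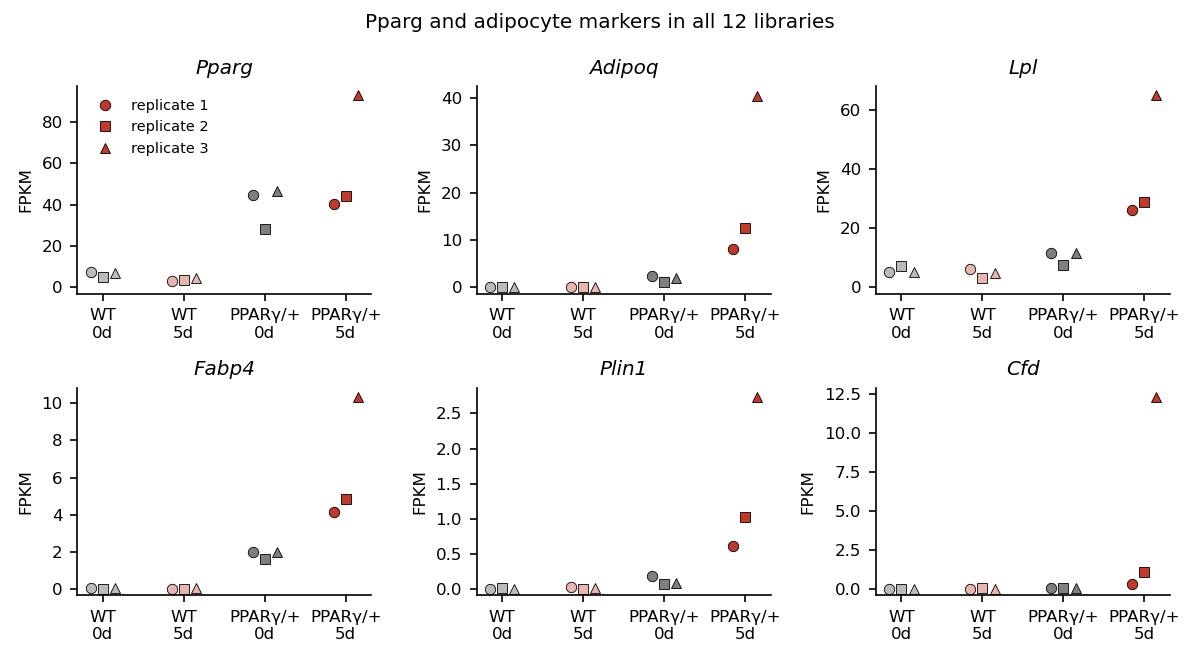
FPKM (vertical axis, linear, 1 scale per panel) of *Pparg* and 5 adipocyte markers in the 3 libraries of each of the 4 groups, with a marker shape for each replicate number. Replicate 3 of PPARγ/+ 5d is the highest point of every panel, at 92.7 FPKM for *Pparg* and 40.5 for *Adipoq*, and the WT libraries lie near 0 for *Adipoq*, *Fabp4*, *Plin1* and *Cfd*.

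A wider list of targets of PPARγ and PPARδ had 11 of 36 genes up and 0 down, with a median log2 change of 0.47, and in WT cells 6 up. *Cd36*, the fatty acid translocase, went from 0.662, 0.182 and 0.944 to 5.40, 5.79 and 9.34 FPKM, a log2 change of 3.47 ± 0.49, and the change in WT cells was 3.51. *Fgf21*, a secreted metabolic factor, rose by 4.03 ± 0.22. *Angptl4*, an inhibitor of lipoprotein lipase and a classical PPAR target, rose by 1.10 ± 0.20 and did not stay past the fold limit without replicate 3 of 5d, at 0.91. The abundant *Plin2* and *Slc27a1*, a droplet coat and a fatty acid transporter, had changes of 0.48 ± 0.14 and -0.48 ± 0.08 and did not pass. In this list 27 of 36 genes, or 75.0%, were highest in replicate 3 of 5d.

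Of 25 genes in a list of fat cell differentiation and lipid metabolism, 8 rose and 0 fell, and 18 were highest in replicate 3 of 5d. The list was not kept apart from those above, and its highest log2 change, 3.41, equals that of the adipocyte markers. *G0s2*, an inhibitor of lipolysis, went from 6.40, 4.32 and 4.31 to 30.7, 31.6 and 33.4 FPKM and did not depend on that library, with a log2 change of 2.67 ± 0.15 and of 2.64 without it. *Scd1*, a fatty acid desaturase, went from 126, 102 and 94.3 to 275, 259 and 287 FPKM, a log2 change of 1.36 ± 0.11. Hormone-sensitive lipase, *Lipe*, rose by 2.0 ± 0.25. Of 16 partners of PPARγ, receptors and cofactors, 0 rose or fell; *Rxra* had a log2 change of 0.31 ± 0.09.

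Many genes of the extracellular matrix rose. Collagens went from between 0.375% and 0.495% of the summed FPKM to between 0.968% and 1.01%, and 13 of 35 rose, 1 fell and 21 did not pass. Of 46 other matrix proteins 23 rose, 1 fell and 22 did not pass. *Dcn*, decorin, a proteoglycan that binds collagen, went from 3.83, 5.10 and 9.38 FPKM to 430, 476 and 532, a log2 change of 6.37 ± 0.30 (adjusted p = 2.63e-05). *Dpt*, dermatopontin, and *Postn*, periostin, rose by 6.54 ± 0.32 and 6.0 ± 0.38, and *Cilp*, a cartilage matrix protein, by 5.69 ± 0.70. *Fn1*, fibronectin, was abundant and rose by 2.39 ± 0.23, and *Col3a1* by 2.18 ± 0.12, from between 163 and 223 FPKM to between 878 and 898. *Col15a1*, a collagen at basement membranes, rose by 4.0 ± 0.29. The exceptions were *Col2a1*, the cartilage collagen, which fell by 1.48 from at most 0.738 FPKM but did not pass without replicate 1 of 5d, and *Nid1*, the basement membrane linker nidogen, at 115, 146 and 140 FPKM and then 55.8, 56.3 and 60.7.

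These genes include the fibroblast markers, and 6 of 6 of those that could be tested rose, with a summed level between 182 and 262 FPKM at 0d and between 1430 and 1510 at 5d. In WT cells 5 of the 6 rose, and their sum went from between 258 and 344 to between 915 and 1500 FPKM. Whether the matrix genes rose in muscle cells or in a fibroblast-like share of the culture was not tested.

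Of 46 metallopeptidases and inhibitors, which remodel the matrix, 19 rose, 0 fell and 27 did not pass, and 11 rose with a pseudocount of 1. *Mmp2*, a gelatinase, went from 135, 221 and 268 to 758, 775 and 747 FPKM, a log2 change of 1.93 ± 0.24, and *Adamts16* rose by 3.35 ± 0.19. Of 25 integrins and partners, 9 rose and 2, *Itga6* and *Itgb7*, fell, while 5 rose with a pseudocount of 1. Without replicate 1 of 0d *Itga6* had a change of -0.89, under the fold limit, and 1 fell. In the insulin-like growth factor axis 6 of 16 genes rose and 0 fell. *Igf1* went from 1.63, 2.85 and 4.53 to 35.8, 31.8 and 28.4 FPKM, a log2 change of 3.48 ± 0.33, and *Igf2* rose by 3.02 ± 0.45. The binding proteins *Igfbp4* and *Igfbp5* rose by 3.37 ± 0.21 and 3.05 ± 0.27. *Igfbp3*, which carries the growth factors in serum, went from 11.5, 8.20 and 7.62 to 72.1, 65.2 and 72.9 FPKM, a log2 change of 2.95 ± 0.15. Its mean in WT cells was 7.39 and 11.6 FPKM, and the interaction of 2.46 ± 0.44 passed (adjusted p = 0.0337).

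Of 30 chemokines and cytokines tested, 17 rose and 1 fell, a share of 56.7% that rose. With a pseudocount of 1, 9 rose and 0 fell. *Ccl8*, a monocyte chemokine, went from 3.29, 2.48 and 2.96 to 46.0, 54.1 and 39.5 FPKM, a log2 change of 3.95 ± 0.14. *Ccl11*, eotaxin, rose by 3.73 ± 0.47 and *Cxcl12*, a homing factor of stem cells, by 1.53 ± 0.16. The gene that fell was *Il7*, with a log2 change of -1.46. Of 15 myokines and other secreted factors 7 rose and 1 fell, among them *Fndc5*, the precursor of irisin, by 3.02 ± 0.28.

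In the Wnt pathway 11 of 35 genes rose and 4 fell, and 6 rose with a pseudocount of 1. *Sfrp2*, a secreted Wnt antagonist, was among the genes that gained most FPKM, with a log2 change of 1.76 ± 0.12, and *Sfrp1* rose by 2.39 ± 0.14. *Wnt4* and the receptor *Lgr6* fell with log2 changes of -2.01 and -3.09, and at 0d both were highest in replicate 1, *Lgr6* at 13.6 against 5.68 and 3.88 FPKM.

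Immediate early factors, which answer growth and stress signals within minutes, rose in 7 of 22 cases and fell in 1. *Egr1* went from 40.3, 26.0 and 32.9 to 172, 187 and 200 FPKM, a log2 change of 2.51 ± 0.15. *Egr2*, *Egr3* and *Fos* rose by 2.65 ± 0.17, 2.96 ± 0.16 and 2.88 ± 0.11, and *Junb* by 1.26 ± 0.11. *Fosl1* went the other way and fell by 1.36. In this list 17 of 22 genes were highest in replicate 3 of 5d, and without that library 7 still rose.

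Of 38 genes of stress responses 10 (26.3%) fell and 4 (10.5%) rose, beside 5.60% and 8.72% of all genes. The share that rose was near that of all genes. *Nqo1*, a quinone reductase under NRF2, went from 50.3, 49.7 and 35.2 to 8.20, 8.83 and 8.59 FPKM and fell by 2.37 on the log2 scale. The metallothionein *Mt2* and the chaperone *Hspa8* fell with log2 changes of -1.25 and -1.06 and were among the genes that lost most FPKM. The 4 that rose included *Gpx3*, a secreted peroxidase, by 3.15 ± 0.27. The others that lost most FPKM were *Cfl1*, the actin-severing protein cofilin, which fell by 1.07, *Ptma*, prothymosin α, with a change of -1.23, *Prl2c3*, and *Rps2-ps10*, whose fragments may belong to *Rps2* itself since it is a processed copy of that gene.

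Of 20 genes of the nuclear envelope 6 fell and 3 rose. *Lmnb1*, lamin B1, fell by 2.99 on the log2 scale, and *Lmna*, lamin A/C, went from 333, 271 and 278 to 116, 123 and 123 FPKM, a log2 change of -1.28. The 3 that rose, *Tmem38a*, *Plpp7* and *Syne1*, are abundant in muscle, and *Tmem38a*, a channel of the sarcoplasmic reticulum and the nuclear envelope, went from 5.32, 5.95 and 4.83 to 21.6, 22.0 and 22.0 FPKM. Of 16 imprinted genes 4 rose and 1 fell. *H19*, a maternally expressed long RNA, went from 25.2, 25.2 and 53.7 to 379, 418 and 482 FPKM, a log2 change of 3.71 ± 0.29, and *Peg10* fell by 1.92.

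Few genes of basic metabolism passed with the fold limit, while their shares of the summed FPKM differed between the days. Cytosolic ribosomal proteins went from between 9.76% and 11.3% of the summed FPKM to between 7.87% and 8.07%. Their median log2 change was -0.45, and 2 of 80 fell, or 68 without the fold limit. The 13 protein genes of the mitochondrial genome went from between 7.28% and 7.83% to between 10.1% and 10.9%, with a median change of 0.49, and 0 passed. Of 93 nuclear genes of the respiratory chain 3 rose, all forms of muscle, *Cox8b*, *Cox6a2* and *Cox7a1*, and 0 fell. In the cholesterol pathway 0 of 25 rose or fell.

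Some markers of other tissues fell. Of 6 smooth muscle markers tested 3 fell and 1 rose, although *Acta2*, the most abundant, went from 453, 490 and 600 to 863, 947 and 781 FPKM, under 2-fold. Of 3 keratinocyte markers *Krt14* fell, with a log2 change of -1.56. Of 6 neuron markers 2 fell and 1 rose, but with a pseudocount of 1 only 1 fell and 0 rose. *Stmn2* went from 16.2, 19 and 22.2 to 3.19, 2.85 and 3.14 FPKM. The proliferins, placental hormones of the prolactin family with near-identical copies whose fragments may be split among them, fell in 3 of 3 cases. *Prl2c3* stood at 425, 449 and 514 FPKM at 0d and at 42.7, 46.2 and 79.8 at 5d and fell by 3.09.

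Noncoding genes were counted by type. Of 13333 protein-coding genes 9.25% rose and 5.76% fell. Of 550 lincRNAs 17.3% rose and 2.18% fell, and of 720 antisense genes 11.1% rose and 2.92% fell. The library kit does not mark the strand, so antisense genes cannot be told from their partners. Of 206 small nucleolar RNAs 15.5% fell and 1.94% rose, with a median of 10.5 fragments over the 6 libraries together, and such short genes are poorly captured by this kind of library. With a pseudocount of 1 in place of 0.1 the lincRNAs that rose went from 95 to 18 and the small nucleolar RNAs that fell from 32 to 21.

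The change from 0d to 5d in PPARγ/+ cells was set beside that in WT cells, whose 6 libraries are separate. In WT cells 1455 genes rose and 1244 fell, and 1713 genes were called in the same direction in both cell types and 6 in opposite directions. A difference was tested only by an interaction term fitted to the 12 libraries, which passed for 137 genes, or 0.760%, and 2164 had an unadjusted p of at most 0.05. Without WT_5d replicate 3 it passed for 527 genes and without PPARγ/+_5d replicate 3 for 42. The muscle apparatus lists had 82 genes up and 2 down in PPARγ/+ cells and 81 up and 1 down in WT cells, the mitosis list 64 down in both, and the interaction passed for 1 of 115 and 0 of 64 genes. These counts do not compare levels. The summed FPKM of the muscle apparatus at 5d was 6260, 6860 and 6760 in PPARγ/+ cells and 17200, 13600 and 6780 in WT cells, that of the troponins 436, 492 and 563 against 2670, 1920 and 521, and that of the myotube markers 942, 1080 and 1110 against 4110, 3140 and 925. WT_5d replicates 1 and 2 lay above every PPARγ/+ library in all 3 sums and replicate 3 lay within their range or below it. Without WT_5d replicate 3 the interaction passed for 23 of the 115 apparatus genes, all with a smaller change in PPARγ/+ cells, and the median interaction of the list was -0.86 in place of -0.27. *Myog*, *Mymk*, *Acta1* and *Cdc20* had interactions of 0.50 ± 1.10, 0.04 ± 1.08, -0.20 ± 1.15 and -0.12 ± 0.21, none of which passed, and the standard errors of the first 3 leave room for differences of more than 2-fold.

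Of the 17 named genes whose interaction passed, 3 (*Myf5*, *Epha1* and *Gm8332*) kept that call under every setting tried. In the 12 fits that each left out 1 library, *Spp1* kept it in 11, losing it without PPARγ/+_0d replicate 2, *Ccn2* in 8, *Scn4a* in 7, *Igfbp3* in 4, *Prl2c3* in 3 and *Vit* in 2.

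Among 55 genes that rose or fell in PPARγ/+ cells and passed the interaction, 33 rose with a change above that in WT cells and 2 rose with a change below it, while 11 fell with a coefficient above 0 and 9 with one below 0. *Spp1*, the secreted phosphoprotein osteopontin, went from 440, 333 and 364 FPKM to 944, 1016 and 1313 in PPARγ/+ cells, with a log2 change of 1.52 ± 0.16, and its WT means were 904 and 825. *Ccn2*, a matricellular target of TGF-β, went from 14.1, 11.8 and 17.5 to 52.9, 69.7 and 67.7 FPKM, against WT means of 31.8 and 43.0. *Epha1*, an ephrin receptor, rose by 2.02 ± 0.11, with an interaction of 1.37 ± 0.15. *Vit*, vitrin, a matrix protein, went from 0, 0.0141 and 0.0505 to 1.92, 1.83 and 3.6 FPKM, with a WT mean of 0.213 at 5d. *Prl2c3* fell in both cell types, with log2 changes of -3.09 here and -6.53 in WT cells. *Nefm*, a neurofilament, fell with log2 changes of -1.21 here, a call lost in 5 of the 6 fits that left out a library, and -4.06 in WT cells, where its 0d mean of 5.98 FPKM stands beside 0.194 in PPARγ/+ cells.

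**Figure D5:**
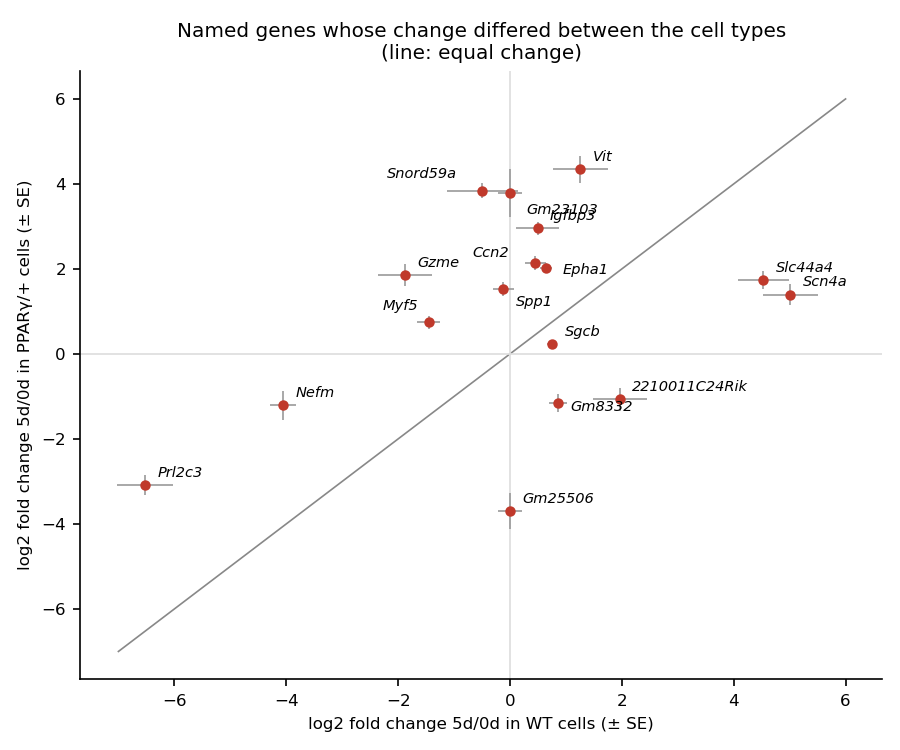
Log2 fold change from 0d to 5d in WT cells (horizontal) and in PPARγ/+ cells (vertical), each with its standard error, for the 17 named genes whose interaction passed. The line marks equal change: *Vit*, *Igfbp3* and *Gzme* lie above it, *Scn4a* and *Slc44a4* below it, and *Myf5* has a change above 0 in PPARγ/+ cells and below 0 in WT cells.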

How the data were processed

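Per the study's methods, the authors used Trim Galore for trimming, STAR for alignment to GRCm38 and HTSeq for counting on Ensembl annotation, and deposited FPKM. The submitters' processing notes name an older mouse build instead; no coordinate was taken from the files. A second table deposited by the authors holds log2(FPKM + 1) of the same values and was used only to check them.

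Libraries were grouped by their titles, 3 per group. Fragments were recovered from the FPKM steps: with annotated gene lengths they came out whole, within 0.02, for 21320 of 27138 genes, and the other 5818 lengths were inferred. Depth limits low genes; the floor is 3 fragments per library, and intervals (95%) cover counting error only. limma 3.58.1 in R 4.3.3 was fitted to log2(FPKM + 0.1) of 18023 genes in the 6 PPARγ/+ libraries, to the 6 WT libraries, and to all 12 for the interaction, with Benjamini-Hochberg adjustment, and was tested on simulated data. Symbols, types and promoters came from GENCODE and RefSeq.

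The gene lists, the comparison and the naming rule were chosen with earlier results of these data known. Named were the 8 genes that rose and the 8 that fell most at a mean of at least 1 FPKM, the 6 that gained and the 6 that lost most FPKM, per list the 3 called genes with the largest change, the 2 most abundant and up to 5 called against the majority, the 5 highest and 5 lowest interactions, and *Pparg*, *Myod1*, *Myog*, *Cdkn1a*, *Mki67*, *Ccnd1*, *Id1*, *Id3*, *Myf5*, *Mymk* and *Mymx*. *Mef2c*, *Ttn*, *Ryr1*, *Chrne*, *Dmd*, *Eno3*, *Rxra*, *Fabp4*, *Cidec*, *Retn*, *Adig*, *Angptl4* and *Igfbp5* were added after their values were seen. Pseudocounts of 1 and 0.01, filters, scalings, voom on recovered fragments, a replicate block and leaving out each library were tried. Some genes that the rule names are not reported here.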

Additional observations from a re-analysis of the deposited data

Results flagged for a closer look

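The 17 results below were singled out because their day effects in PPARγ/+ and WT cells differed by the interaction test. Each value is a difference on the log2 scale, the day effect of PPARγ/+ cells less that of WT cells. For 14 of the 17 the difference did not pass under at least 1 of the other settings, the exceptions being *Myf5*, *Epha1* and *Gm8332*.

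Among secreted and surface proteins the differences were 1.638 for *Spp1*, 1.68 for *Ccn2*, 2.46 for *Igfbp3*, 3.087 for *Vit* and 1.373 for *Epha1*, all of which rose in PPARγ/+ cells. *Gzme*, a granzyme, had a difference of 3.733, with means of 0.929 and 3.63 FPKM in PPARγ/+ cells and of 0.623 and 0.108 in WT cells.

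*Myf5* had a difference of 2.197, and its 3 values at 5d in PPARγ/+ cells lay above those at 0d while it fell in WT cells. *Prl2c3* and *Nefm* had differences of 3.434 and 2.85 and fell in both cell types, but *Nefm* rested on at most 3 fragments per library of PPARγ/+_5d.

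On the other side, *Scn4a* had a difference of -3.62 and *Slc44a4*, a choline transporter family member, of -2.789. The difference was lost under 8 of 20 other settings for *Scn4a* and under 19 of 20 for *Slc44a4*. Both genes rose in both cell types and reached means of 4.31 and 2.94 FPKM in WT_5d but 0.166 and 0.25 in PPARγ/+_5d. *Sgcb* had a small difference of -0.5166, lost under 14 of 20. The predicted or uncharacterised genes *Gm8332* and *2210011C24Rik* had differences of -2.016 and -3.035.

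Short RNA genes gave the values 4.336 for *Snord59a*, 3.792 for *Gm23103* and -3.702 for *Gm25506*. These rest on at most 5 fragments in any PPARγ/+ library.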

How the results depend on the processing

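With a pseudocount of 1, 696 genes rose and 542 fell in place of 1572 and 1009. With a filter of 1 FPKM in at least 3 libraries 1009 rose. Without the fold limit 3386 rose and 5183 fell, so that 39.5% of the calls rose in place of 60.9%. The other settings kept both counts within 1.5 times: median-ratio scaling, which moved the median of all genes by 0.10, gave 1786 and 826, quantile normalization 1490 and 1106, voom on recovered fragments 1947 and 1117, and leaving out each library 1476 to 1629 and 932 to 1051. Without the fold limit 18 PPAR targets passed as having risen, and with the filter of 1 FPKM 3 adipocyte markers were left that rose.

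The genes with a passed interaction, 137 in all, numbered between 42 and 527 when each library was left out in turn, the lowest without PPARγ/+_5d replicate 3 and the highest without WT_5d replicate 3, and of these counts only that without WT_5d replicate 1, 153, lay within 1.5 times of 137. Libraries that share a number deviated together only slightly, with correlations of 0.04, 0.08 and 0.03. Those of pairs with different numbers were lower, between -0.06 and 0.01. Whether the numbers pair the libraries was not settled, and the main fit did not pair them. With the replicate number as a block 1551 genes rose and 1022 fell, and 61 had a passed interaction.

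In the named genes, no direction was reversed where the gene was called in the main fit or under the setting. Changes of sign in values called in neither fit were not counted as reversals. The day effect of 275 genes gave 4495 values on the same side of the threshold, 110 that lost the call and 49 that gained it. The interactions of all 275 gave 5323 values on the same side, 128 that lost the call, in 14 genes, and 28 that gained it. The adjusted p of the 17 that passed ranged over the settings from 0.0112 to 0.404 for *Vit*, from 0.00116 to 0.696 for *Slc44a4* and from 0.00101 to 0.803 for *Scn4a*. Of the counts over all genes, gene types and gene lists under these settings, 154 moved by over 1.5 times and 1294 did not; the cause was not tested. Near the fold limit, *Cfl1* (-0.99) and *Rps2-ps10* (-0.99) lost the call without replicate 1 of 0d, *Hspa8* (-0.92) and *Cox7a1* (0.88) without replicate 2 of 0d, and *Id3* (-0.99) without replicate 1 of 5d.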

Other observations

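The values of other gene groups follow, to be read beside the 8.72% of all genes that rose and the 5.60% that fell. Among 39 growth factors and receptors tested 11 rose and 2 fell: *Fgfr4*, the receptor of differentiating myoblasts, went from 0.0694, 0.173 and 0.155 to 1.5, 1.64 and 1.12 FPKM, a log2 change of 2.72 ± 0.25, and the 2 that fell were *Dusp4*, a phosphatase of MAP kinases, and *Etv4*, a factor under FGF signalling, with log2 changes of -1.09 and -1.88. Without replicate 1 of 0d *Dusp4* stood at -0.95, under the fold limit. Among 26 genes of muscle atrophy and proteolysis 4 rose and 0 fell. *Trim63*, the ubiquitin ligase MuRF1, went from 0.13, 0.216 and 0.242 to 2.04, 2.34 and 1.99 FPKM, a log2 change of 2.93 ± 0.20.

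Of 12 host genes of muscle microRNAs tested 4 rose and 0 fell. *Gm28653*, listed among them, went from 0.0233, 0.124 and 0.191 to 3.34, 3.28 and 3.11 FPKM. Of 33 genes of TGF-β, myostatin and BMP signalling 6 rose and 1, the inhibitor *Smad7*, fell. Of 37 genes of the interferon response and antigen presentation 4 (10.8%) rose and 1, *Oas1a*, fell (2.70%), shares near or below those of all genes, and 21 of the 37 were lowest in replicate 3 of PPARγ/+_5d. In the list of cholesterol synthesis 23 of 25 genes were lowest in that library, with a median deficit of -0.17 on the log2 scale against the other two libraries of 5d.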
